A study of Sus scrofa with 11 samples.

Results

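The 8 genes described here, MYH11, MYL9, ACTA2, ACTG2, CNN1, SMTN, LMOD1 and TNNC1, encode parts of the filaments that shorten a muscle cell and are grouped here as contractile smooth muscle genes. They were chosen by symbol, with earlier results of these data known. The counts of members called below therefore describe these genes and are no independent support. Each symbol matched 1 of the 25880 gene identifiers in the count tables, of which 14857 carry a symbol. RNA sequencing counts were deposited for 11 libraries of whole porcine coronary arteries in 5 groups. Native arteries (2 libraries) had no culture. The other 9 libraries came from arteries kept in a bioreactor: stented without flow (labelled Stent/Flow -, 2 libraries, here stented static), stented under high flow (Stent/Flow ++, 3 libraries, stented high-flow), without a stent under high flow (Flow ++, 2 libraries, high-flow) and without a stent under low flow (Flow +, 2 libraries, low-flow). A stent is a metal mesh tube that holds an artery open.

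No group was both unstented and static, and no native artery was stented, so static culture was measured only together with a stent. The library names of both stented static libraries hold 3d, and that of stented high-flow replicate 3 holds 7d. The labels give no meaning or length of culture for these or for the other cultured libraries. The number 25 stands in the library names of native replicate 2 and of stented high-flow replicate 1, also without a stated meaning. The sources used here do not give strain, age or stent type, and they do not say whether replicates are separate animals. The p-values thus speak only of the spread among these libraries, and part of that spread may be technical.

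The middle layer of an artery wall is made mostly of smooth muscle cells. In these cells myosin filaments pull on actin filaments when calcium bound to calmodulin switches on a kinase that phosphorylates the myosin regulatory light chain, and actin-binding proteins such as calponin, smoothelin and leiomodin shape and brake the thin filament. Many of these genes are driven by serum response factor with its partner myocardin. After injury, or when cut out and cultured, smooth muscle is known to lose contractile gene expression and to take up a matrix-making, synthetic state. TNNC1 stands apart by its known biology: it encodes the calcium-binding troponin C of heart and slow skeletal muscle, whereas smooth muscle uses calmodulin in that role.

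All 8 genes were lower in each of the 9 cultured libraries than in both native libraries, a pattern that 16.9% of the 15348 tested genes shared. Together they took 2.76% and 3.32% of all counts in the native libraries and 0.05% to 0.809% in the cultured ones. By the quasi-likelihood test of edgeR, adjusted after Benjamini and Hochberg over the whole table (called below an adjusted p of 0.05), 8 of 8 fell in stented static arteries, where 7.19% of all tested genes fell. In stented high-flow arteries 7 of 8 fell (13.9% of all genes), in high-flow arteries 7 of 8 (8.86%) and in low-flow arteries 3 of 8 (7.38%), and none rose. LMOD1, SMTN and TNNC1 were called lower in all 4 comparisons, as were 3.82% of all tested genes. The median log2 fold change of the 8 genes was -4.90, -3.52, -4.20 and -2.57 in that order of groups, beside 0.02, 0.06, 0.02 and -0.00 for all tested genes. These 4 comparisons share the 2 native libraries and are not independent of each other. In whole tissue, fewer smooth muscle cells and less of these RNAs per cell cannot be told apart.

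The libraries held 13496636 to 26785124 counts, and a single member's count ranged from 48 to 219289, so none of these values is near the limit of detection (3 counts were worth 0.105 to 0.215 counts per 1000000). Levels below are counts per 1000000 (CPM), scaled by the trimmed mean of M-values (TMM), with replicates in the order of their numbers. They compare 1 gene across libraries and not genes with each other, since transcript lengths were not used. Stented static replicate 1 stood apart: its median member was at 0.611% of the native mean and it was the lowest cultured library for 7 of the 8 genes. High-flow replicate 1, at 2.47%, was the next lowest for 5. The other 7 cultured libraries lay at 6.09% to 15.7%.

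**Figure D1:**
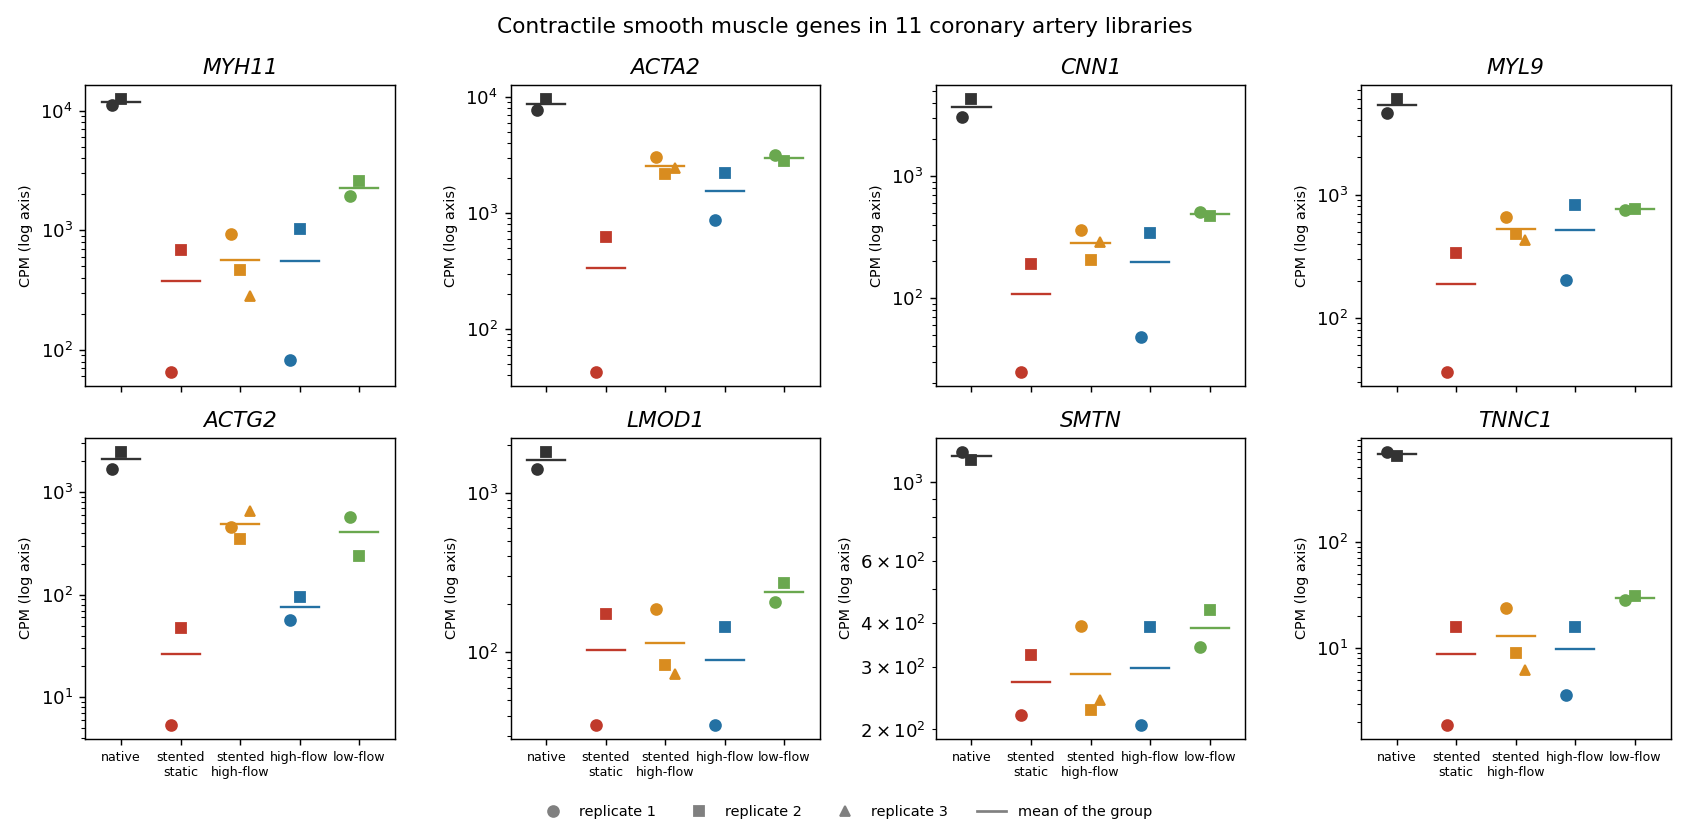
Levels of the 8 contractile genes in each library (CPM, TMM-scaled, log axis), with 1 point per library and a horizontal bar at each group's mean. Every cultured point lies below both native points for every gene, and stented static replicate 1 is the lowest cultured point for every gene but SMTN.

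MYH11 encodes the smooth muscle myosin heavy chain, the motor of the thick filament (ENSSSCG00000000146, chromosome 3, 7002667 to 7143093 in Sscrofa11.1). Native libraries held 11137 and 12614 CPM. Stented static libraries held 65.5 and 685, stented high-flow 934, 468 and 280, high-flow 82.0 and 1030, and low-flow 1944 and 2568. The low-flow libraries were the highest of the cultured arteries, and the pairs of stented static and high-flow libraries each differed by over an order of magnitude and overlapped each other. Against native arteries, MYH11 fell in stented static (log2 fold change -4.98 ± 1.26, SE; adjusted p = 0.0282), stented high-flow (-4.40 ± 1.04, adjusted p = 0.0115) and high-flow arteries (-4.42 ± 1.23, adjusted p = 0.0343). The low-flow difference of -2.40 ± 1.12 was not called (adjusted p = 0.187). Leaving out either native library or stented static replicate 1 ended the stented static call (adjusted p = 0.0782, 0.0957 and 0.101). Leaving out either native library, high-flow replicate 1 or either low-flow library ended the high-flow call (adjusted p = 0.093, 0.103, 0.14, 0.0514 and 0.0515). Without high-flow replicate 2 the high-flow value was -7.13, and without stented static replicate 2 the stented static value was -7.50.

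MYL9 encodes the regulatory light chain whose phosphorylation starts contraction (ENSSSCG00000036402, chromosome 17, 39788165 to 39795240). Its native level was 4557 and 5996 CPM. The stented static libraries had 36.4 and 338 CPM, the stented high-flow ones 657, 476 and 430, the high-flow ones 203 and 829, and the low-flow ones 756 and 765. The low-flow replicates lay within a narrow band, and the highest cultured value was in high-flow replicate 2. MYL9 fell in stented static (log2 fold change -4.82 ± 0.95, SE; adjusted p = 0.0095), stented high-flow (-3.34 ± 0.76, adjusted p = 0.0097) and high-flow arteries (-3.35 ± 0.89, adjusted p = 0.0282). Its low-flow value of -2.79 ± 0.87 just missed the threshold (adjusted p = 0.0575) and passed it without stented static replicate 1 or 2, or without high-flow replicate 1 or 2 (adjusted p = 0.00898, 0.00909, 0.0476 and 0.0479). The stented high-flow call was lost without native replicate 2 (adjusted p = 0.0511), and the high-flow call without either native library or high-flow replicate 1 (adjusted p = 0.0774, 0.108 and 0.17). Without stented static replicate 2 the stented static value was -7.18. Reads of MYL9 could also match its near-identical relatives, and no source used here says how shared reads were counted.

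ACTA2 encodes smooth muscle alpha actin, the main actin of the arterial thin filament (ENSSSCG00000010447, chromosome 14, 100868145 to 100886732). Native libraries held 7661 and 9667 CPM. Stented static libraries held 42.6 and 624, stented high-flow 3022, 2161 and 2415, high-flow 865 and 2203, and low-flow 3168 and 2793. Both stented static libraries lay below every other library, and the 3 stented high-flow libraries lay close together at 29.2% of the native mean. ACTA2 fell in stented static arteries (log2 fold change -4.70 ± 0.98, SE; adjusted p = 0.0124). Without native replicate 2 this call was lost (adjusted p = 0.0557), and without stented static replicate 2 the value was -7.67. It was the 1 member not called in stented high-flow (-1.77 ± 0.76, adjusted p = 0.114) and in high-flow arteries (-2.50 ± 0.89, adjusted p = 0.0828), and its low-flow value was -1.54 ± 0.86 (adjusted p = 0.269). All cultured libraries of those 3 groups were still below both native libraries. Without stented static replicate 1 or 2 in the shared fit, ACTA2 was called lower in all 3, with adjusted p = 0.0068 and 0.00674 for stented high-flow, 0.00431 and 0.00435 for high-flow and 0.0374 and 0.0372 for low-flow arteries.

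ACTG2 encodes gamma smooth muscle actin, best known from the gut and other visceral muscle (ENSSSCG00000008294, chromosome 3, 69097366 to 69121542). Its native libraries were at 1679 and 2469 CPM. Stented static libraries had 5.41 and 47.3 CPM, stented high-flow ones 458, 351 and 652, high-flow ones 56.6 and 94.0, and low-flow ones 568 and 239. The cultured groups split: all stented high-flow and low-flow libraries lay above all stented static and high-flow libraries. ACTG2 fell in stented static (log2 fold change -6.30 ± 0.95, SE; adjusted p = 0.0025) and high-flow arteries (-4.78 ± 0.88, adjusted p = 0.0059). Its fall in stented high-flow arteries was close to the threshold (-2.09 ± 0.68, adjusted p = 0.0459), and the low-flow value of -2.36 ± 0.79 was not called (adjusted p = 0.0753). The stented high-flow call was lost when any native, stented high-flow, high-flow or low-flow library was left out, with adjusted p between 0.0527 and 0.216, and kept without either stented static library. The high-flow call was lost without high-flow replicate 1 (adjusted p = 0.0678), and the low-flow difference passed without stented static replicate 1 or 2 (adjusted p = 0.0103 and 0.0104). Actin genes are near-identical to each other in sequence, so the split of reads among ACTA2, ACTG2 and other actins is uncertain.

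CNN1 encodes calponin 1, which binds actin and slows the myosin motor (ENSSSCG00000013614, chromosome 2, 70183370 to 70190756). Native arteries gave 3067 and 4319 CPM. Stented static arteries gave 24.7 and 192 CPM, stented high-flow ones 362, 205 and 288, high-flow ones 48.1 and 343, and low-flow ones 505 and 473. Both low-flow libraries were above every other cultured library. CNN1 fell in stented static (log2 fold change -5.09 ± 1.03, SE; adjusted p = 0.0110), stented high-flow (-3.70 ± 0.82, adjusted p = 0.0089) and high-flow arteries (-4.24 ± 0.99, adjusted p = 0.0173). Its low-flow value was -2.92 ± 0.93 (adjusted p = 0.0648), which passed without stented static replicate 1 or 2 or high-flow replicate 1 or 2 (adjusted p = 0.0211, 0.0212, 0.0357 and 0.0364). The stented static call was lost without native replicate 2 (adjusted p = 0.0509), and the high-flow call without either native library or high-flow replicate 1 (adjusted p = 0.0509, 0.0711 and 0.0894).

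SMTN encodes smoothelin, an actin-binding protein of contractile smooth muscle (ENSSSCG00000010017, chromosome 14, 47879317 to 47902700). Native libraries held 1224 and 1161 CPM, stented static 220 and 325, stented high-flow 392, 227 and 242, high-flow 206 and 389, and low-flow 342 and 435. SMTN varied least among cultured libraries, by 2.11-fold from the lowest to the highest, where the other members varied by 7.68-fold to 120.5-fold. SMTN fell in all 4 cultured groups, namely stented static (log2 fold change -2.13 ± 0.40, SE; adjusted p = 0.0074), stented high-flow (-2.05 ± 0.35, adjusted p = 0.0022), high-flow (-2.00 ± 0.40, adjusted p = 0.0084) and low-flow arteries (-1.62 ± 0.39, adjusted p = 0.0236). Its fall was the smallest of the 8 in stented static and high-flow arteries, yet with the smallest SE of the 8 in all 4 comparisons. The stented static call was lost without stented static replicate 1 (adjusted p = 0.0604), the high-flow call without high-flow replicate 1 (0.0747), and the low-flow call without either native or either low-flow library (0.0948 to 0.183).

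LMOD1 encodes leiomodin 1, which starts new actin filaments in smooth muscle (ENSSSCG00000031201, chromosome 10, 24165293 to 24194823). Its level was 1398 and 1808 CPM in native libraries. It was 35.2 and 173 CPM in the stented static pair, 186, 83.5 and 73.5 in the stented high-flow libraries, 35.3 and 143 in the high-flow pair and 205 and 270.2 in the low-flow pair. Low-flow libraries were again above all other cultured ones, and the lowest values of the stented static and high-flow groups were nearly equal. LMOD1 fell in all 4 groups, with log2 fold changes of -3.95 ± 0.84 (SE; adjusted p = 0.0135) for stented static, -3.81 ± 0.71 (adjusted p = 0.0036) for stented high-flow, -4.17 ± 0.85 (adjusted p = 0.0094) for high-flow and -2.75 ± 0.79 (adjusted p = 0.0451) for low-flow arteries. The stented static call was lost without native replicate 2 or stented static replicate 1 (adjusted p = 0.0631 and 0.0588) and the high-flow call without high-flow replicate 1 (0.0716). The low-flow call was lost without native replicate 1 or 2, stented high-flow replicate 2, or low-flow replicate 1 or 2 (0.114, 0.16, 0.0594, 0.245 and 0.181).

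TNNC1 (ENSSSCG00000011441, chromosome 13, 34591571 to 34594320) showed the widest gap between native and cultured arteries. Its native level was 704 and 638 CPM. Among cultured libraries it was 1.90 and 15.8 CPM in the stented static pair, 23.9, 8.98 and 6.28 in the stented high-flow libraries, 3.61 and 15.9 in the high-flow pair, and 28.05 and 31.1 in the low-flow pair. The lower native library was 20.5-fold above the highest cultured library, a gap of 2.42-fold to 6.07-fold for the other members. TNNC1 fell in each group, with log2 fold changes of -6.26 ± 1.09 (SE; adjusted p = 0.0050) for stented static, -5.69 ± 0.88 (adjusted p = 0.0014) for stented high-flow, -6.11 ± 1.08 (adjusted p = 0.0048) for high-flow and -4.50 ± 0.99 (adjusted p = 0.0157) for low-flow arteries. Ordered from the most negative fold change, it was gene 71, 186, 124 and 257 of 15348. The first 3 calls held without any single library, and the low-flow call was lost without native replicate 1 or 2 or low-flow replicate 1 or 2 (adjusted p = 0.06, 0.0554, 0.133 and 0.119).

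**Figure D2:**
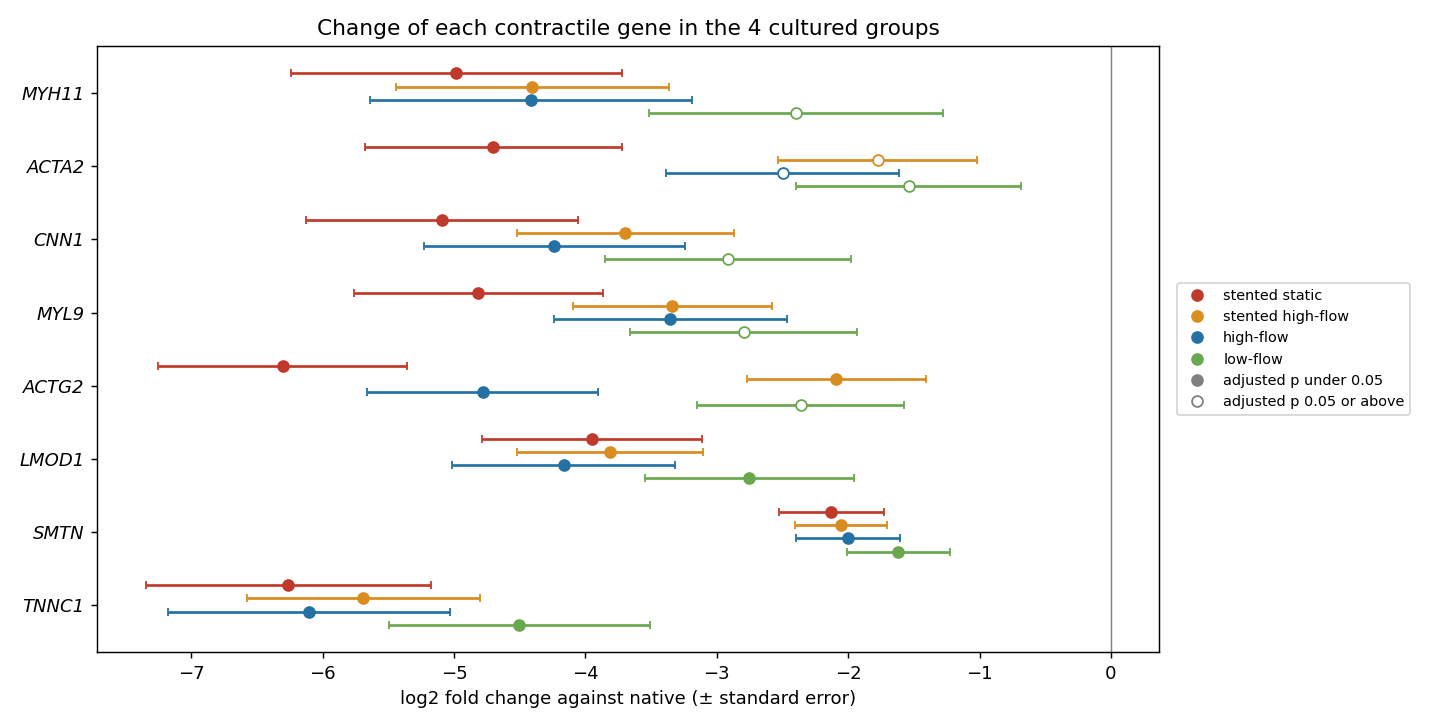
Log2 fold change of each of the 8 genes against native arteries in the 4 cultured groups, with bars of 1 SE and filled symbols for an adjusted p under 0.05. All values are negative, TNNC1 and ACTG2 are lowest in stented static arteries (-6.26 and -6.30), and the low-flow value is nearest to 0 for every gene except ACTG2.

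Because TNNC1 is a heart gene by its known biology, other heart muscle genes were read beside it. TNNT2, cardiac troponin T, was at 403 CPM in native replicate 1 and 1.32 in native replicate 2. MYH6, the atrial myosin heavy chain, was at 539 and 1.67, MYL3, a myosin essential light chain of heart, at 126 and 3.45, and ACTC1, cardiac actin, at 197 and 2.42. MYL2, the ventricular regulatory light chain, was at 0.586 and 0.115. The first 4 of these were thus high in native replicate 1 and at 3.45 CPM or below in native replicate 2, whereas TNNC1 was at 704 and 638 CPM. The summed level of the cardiomyocyte list (12 of 20 genes matched, 10 tested) was 1635 and 119 CPM in native and 10.2 to 74.2 CPM in cultured libraries, in which 2 to 5 of the 12 were at 0 counts. MYL3 had 0 counts in both stented static and both low-flow libraries, and TNNT2 in all 3 stented high-flow libraries. Of the 10 tested markers, 6, 7, 6 and 6 were lower by the same test in the 4 cultured groups, taken in the order above, and none was higher. Without native replicate 1, in which these markers were high, 1, 2, 1 and 1 of the 10 were lower, and the calls of TNNT2, MYH6 and ACTC1 were lost in all 4 groups. ACTC1 in high-flow arteries then moved from -7.53 to -2.15 (log2 fold change), and MYH6 in stented static arteries from -6.81 to 0.50, which turned its direction. With any 1 library left out the counts ran from 0 to 8, 2 to 9, 1 to 6 and 0 to 8. In the same fit without native replicate 1, the TNNC1 fold change was -6.18, -5.64, -6.04 and -4.44 in that order of groups, each within 0.1 of the value with it, and only the low-flow call was lost. The skeletal fast-muscle troponin C, TNNC2, was at 1.498 and 0.518 CPM in native and higher, at 1.75 to 4.95 CPM, in cultured libraries. It was called higher in stented high-flow arteries, where 10.4% of all tested genes were called higher, and in no other group.

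**Figure D3:**
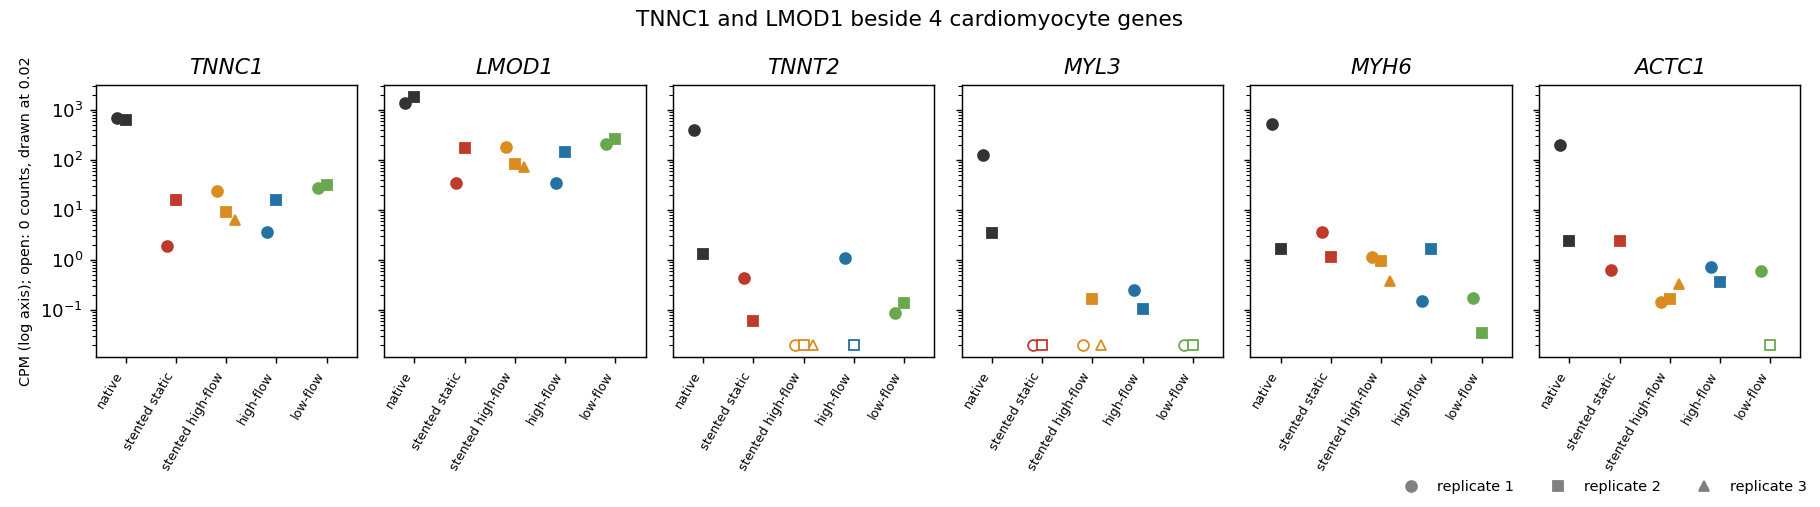
Levels of TNNC1, LMOD1 and 4 heart muscle genes in each library (CPM, log axis, with 1 point per library and open points at 0.02 for libraries with 0 counts). TNNC1 is at a similar level in native replicates 1 and 2, while TNNT2, MYH6, MYL3 and ACTC1 are at 126 to 539 CPM in native replicate 1 and at 1.32 to 3.45 CPM in native replicate 2.

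Stented high-flow and stented static arteries both held a stent and differed in flow. ACTG2 was the 1 member called, 4.21 ± 0.84 (log2, SE) higher in stented high-flow arteries (edgeR's quasi-likelihood test, adjusted p = 0.0280), where 1.18% of all tested genes were called higher. The 3 stented high-flow libraries at 351 to 652 CPM lay above the stented static pair at 5.41 and 47.3. ACTA2 was 2.93 ± 0.87 higher, also without overlap, and did not pass (adjusted p = 0.0967). In all, 4 of 8 genes were higher in every stented high-flow library than in every stented static library, as were 14.4% of all genes. The ACTG2 call was lost without native replicate 1 (adjusted p = 0.0502) or stented static replicate 1 (3.36, adjusted p = 0.0573). Without stented static replicate 2 the ACTG2 difference was 6.50, and ACTA2 also passed, at 5.90 (adjusted p = 0.0016). The mark 3d was in the names of both stented static libraries and of no stented high-flow library, so what it marks and the flow cannot be told apart here.

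Stented high-flow and high-flow arteries shared the flow and differed in the stent. None of the 8 genes was called by edgeR, 1 had an unadjusted p under 0.05, DESeq2 called none, and 0% of all tested genes were called. ACTG2 was the gene with that low p: its stented high-flow libraries lay above both high-flow libraries (56.6 and 94.0 CPM), a difference of 2.69 ± 0.77 (log2, SE; adjusted p = 1). Such a gap without overlap was found for 5.49% of all genes. The members' median difference was 0.38 (log2), and it turned to -0.31 without high-flow replicate 1.

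High-flow and low-flow arteries were both without a stent. No member was called by edgeR (0.0261% of all genes were called lower in high-flow arteries), 1 had an unadjusted p under 0.05, and DESeq2 called none. In 6 of 8 genes both high-flow libraries were below both low-flow libraries, a pattern of 22.9% of all tested genes. ACTG2 was at -2.42 ± 0.79 (log2, SE; adjusted p = 0.527) and MYH11 was at -2.02 ± 1.11 (adjusted p = 0.672). MYH11 in high-flow replicate 1 was 82.0 CPM, against 1030 in replicate 2 and 1944 and 2568 under low flow.

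Low-flow against stented static differed in both stent and flow. All 8 genes were higher in both low-flow libraries than in both stented static libraries, as were 23% of all tested genes, but edgeR called none, as it called 0% of all genes. Of the 8, 5 had an unadjusted p under 0.05, and DESeq2 called 2. The differences of over 2 on the log2 scale were 3.94 ± 0.85 for ACTG2 (adjusted p = 0.149), 3.16 ± 0.91 for ACTA2 (0.254), 2.59 ± 1.13 for MYH11 (0.425), 2.18 ± 0.91 for CNN1 (0.403) and 2.02 ± 0.84 for MYL9 (0.401). Without stented static replicate 2, 3 genes passed: ACTA2 at 6.13 (adjusted p = 0.0055), ACTG2 at 6.22 (0.0076) and MYL9 at 4.39 (0.033). That fit compares the low-flow pair with stented static replicate 1 alone, whose spread is taken from the other groups.

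High-flow against stented static likewise differed in stent and flow, with no member called by edgeR (0.476% of all genes were called higher), 1 with an unadjusted p under 0.05 and none by DESeq2. ACTA2 had the widest difference, 2.20 ± 0.88 (log2, SE, adjusted p = 0.273 by edgeR). In 2 of 8 genes both high-flow libraries lay above both stented static libraries, as in 20.5% of all genes. Without stented static replicate 2, 3 members passed, with ACTA2 at 5.19 (adjusted p = 0.0049). The members' median difference of 0.71 (log2) was 3.05 in that fit and turned to -0.77 without high-flow replicate 2, so its direction rested on single libraries. Stented high-flow against low-flow gave no call by edgeR (0.0717% of all genes were called lower), none with an unadjusted p under 0.05 and none by DESeq2. MYH11 was at -2.01 ± 0.97 (adjusted p = 0.625), and 5 of 8 genes lay lower in all stented high-flow libraries, as did 14.1% of all genes.

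Ordered by group mean, low-flow arteries were the highest cultured group for 7 of 8 genes, with ACTG2 highest in stented high-flow arteries. Stented static arteries were the lowest for 7 of 8, with LMOD1 lowest in high-flow arteries. Of the 24 pairs of neighbouring cultured groups in these orders (3 for each gene), none was called and 16 overlapped in their libraries. The share of the native mean that was left ran from 1.27% for ACTG2 in stented static arteries to 34.4% for ACTA2 in low-flow arteries. MYH11 was left at 3.16%, 4.72%, 4.68% and 19.0% (static to low-flow, in the order of groups given above), SMTN at 22.9%, 24.1%, 25% and 32.6%, and TNNC1 at 1.32%, 1.95%, 1.45% and 4.41%.

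Ratios between members differed across libraries. Each ratio of a pair of genes was set to a native mean of 1, which removes gene length, and no test was run on ratios. The ratio of ACTA2 to MYH11 was 0.897 to 1.25 in stented static libraries, 4.46 to 11.9 in stented high-flow libraries, 2.95 to 14.5 in the high-flow pair and 1.498 to 2.24 in the low-flow pair, so MYH11 was further below its native mean than ACTA2 in every library of the last 3 groups. The ratio of SMTN to MYH11 was above the native range in all 9 cultured libraries, at 1.69 to 1.75 in low-flow and 3.76 to 33.4 in the other groups, with the top value in stented static replicate 1. TNNC1 relative to LMOD1 was 0.128 to 0.324 in cultured libraries, all below the native 0.837 and 1.19. The actins also differed from each other: ACTG2 relative to ACTA2 was 0.641 to 1.14 in stented high-flow libraries and 0.180 to 0.277 in high-flow libraries.

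**Figure D4:**
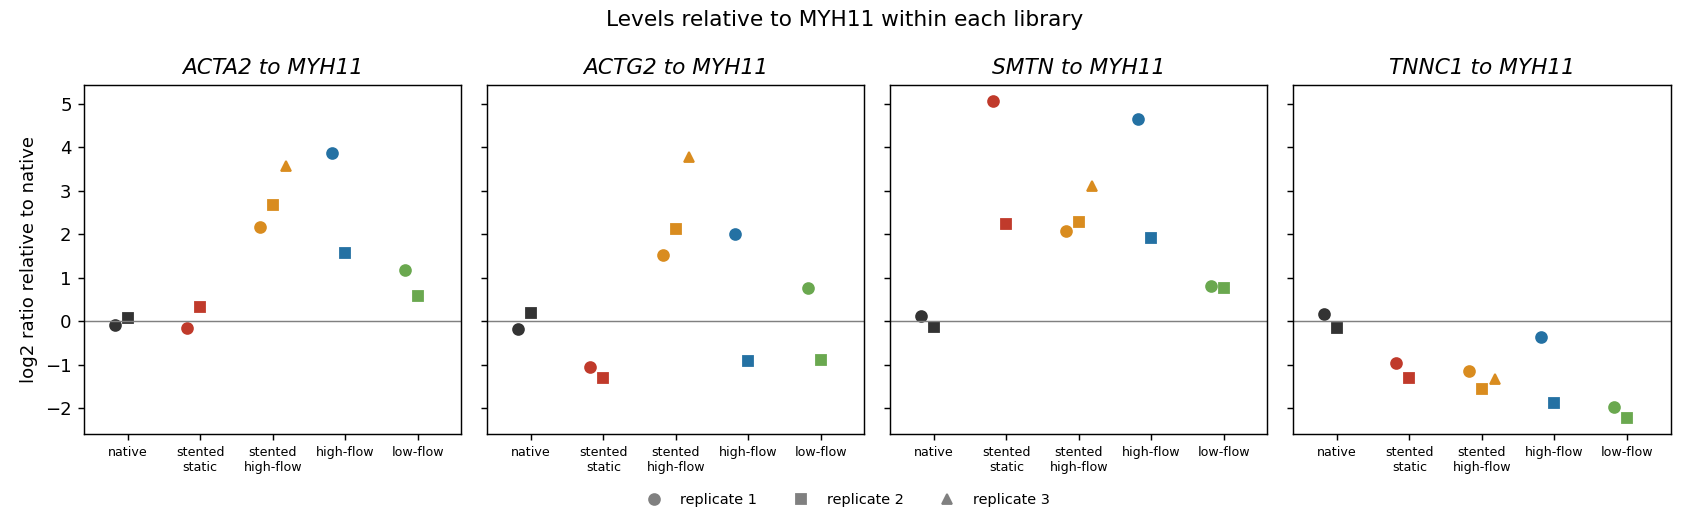
Log2 ratio of ACTA2, ACTG2, SMTN and TNNC1 to MYH11 in each library, relative to native (line at 0), with 1 point per library. SMTN lies above the line in all 9 cultured libraries and TNNC1 below it in all 9, and ACTA2 lies highest in high-flow replicate 1, at a ratio of 14.5 before the logarithm.

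Across the 11 libraries, log2 CPM of the 7 genes other than TNNC1 correlated pairwise with Pearson's r of 0.665 to 0.978, and TNNC1 with the others at 0.768 to 0.990. These points share the gap between native and cultured groups. Over the 9 cultured libraries alone the ranges were 0.351 to 0.977 and 0.650 to 0.979. TNNC1 was closest to LMOD1 (0.990 over 11 libraries), MYH11 to LMOD1 reached 0.975, and ACTA2 to ACTG2 0.948. The lowest value over cultured libraries was ACTG2 with SMTN. Outside the 8 genes, 8394 genes with a symbol and a mean log2 CPM of at least 3 were compared with the members' mean standardised level. The 10 most similar were FBXL22, MYLK, FLNA, PKIA, SH3BGR, MEAF6, ARHGAP10, KCNH2, DES and COL18A1, with r of 0.989 for FBXL22 down to 0.959 for COL18A1 over 11 libraries. FBXL22, an F-box protein, was at 48.6 and 56.1 CPM in native and 1.23 to 13.6 in cultured libraries and was called lower in 3 of the 4 comparisons. FLNA, the actin crosslinker filamin A, was at 16199.6 and 16973 CPM in native and 1834 to 6003 in cultured libraries and was called lower in all 4. MEAF6 moved with the members but little in size, from 57.4 and 59.8 CPM to 31.2 to 45.7, and was called in none.

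Other genes of the contractile machinery also fell, in part. Of 14 tested thin filament and actin-binding genes, 6, 5, 5 and 5 were called lower in the 4 cultured groups (stented static first, then stented high-flow, then high-flow, and low-flow last, as in all such series below), and 0, 1, 1 and 0 higher (5.54%, 10.4%, 5.94% and 5.03% of all tested genes were called higher), with a median log2 fold change of -1.25, -0.72, -0.88 and -0.89. These counts include LMOD2, a leiomodin, called lower in 3 comparisons. As with TNNT2 above, it was high in native replicate 1 only (28.1 CPM, beside 0.173 in native replicate 2). Without native replicate 1 its fold change in stented static arteries was no longer negative. TPM2, beta tropomyosin, was at 3529 and 4777 CPM in native and 91.2 to 1199 in cultured libraries. It fell in all 4 groups, at -4.05 ± 0.68, -2.51 ± 0.55, -2.27 ± 0.63 and -2.27 ± 0.63 (log2 fold change, SE). So did CALD1, the actin-binding caldesmon, at -2.89 ± 0.53, -2.01 ± 0.45, -1.78 ± 0.51 and -1.92 ± 0.51, and SMTNL2, a smoothelin-like protein, at -5.23 ± 0.72, -6.82 ± 0.68, -6.22 ± 0.77 and -4.93 ± 0.70. The SMTNL2 calls held in each of the 20 alternatives that tested it. The TPM2 and CALD1 calls for high-flow and for low-flow arteries were lost without either native library, and those for stented high-flow arteries without native replicate 2 (TPM2 -2.24, adjusted p = 0.0557; CALD1 -1.49, adjusted p = 0.0953). The stented static call of CALD1 was also lost without native replicate 2 (-2.35, adjusted p = 0.0554) or stented static replicate 1. With any 1 library left out, 3 to 7, 3 to 7, 2 to 5 and 1 to 5 genes of the list were lower. In this list and the 4 that follow, the lowest counts came without a native library or a library of the cultured group compared. The gene called higher was TPM4, a tropomyosin of non-muscle filaments, at 1.31 ± 0.31 for stented high-flow and 1.14 ± 0.33 for high-flow arteries. It was named after its values were seen, and neither call was kept without native replicate 1. The identifier matched to TAGLN, transgelin, was at 54.2 and 32.8 CPM in native and 8.47 to 30.5 in cultured libraries, and it was not called. The annotation and the handling of reads shared between identifiers were not stated, so these values may not hold all transgelin reads.

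Of 16 tested myosin and myosin-regulating genes, 5, 6, 4 and 4 were called lower, and the list had medians of -0.95, -0.59, -0.78 and -0.41. Called higher were 0, 1, 1 and 0 of the 16, beside 5.54%, 10.4%, 5.94% and 5.03% of all tested genes. MYLK, the kinase that phosphorylates MYL9, was at 1294 and 1564 CPM in native and 26.1 to 352 in cultured libraries. It fell in stented static (-4.06 ± 0.93), stented high-flow (-2.90 ± 0.76) and high-flow arteries (-3.24 ± 0.89), and its low-flow value was -2.11 ± 0.85 (adjusted p = 0.129). Each of the 3 calls was lost without either native library (adjusted p = 0.0554 to 0.115). PPP1R12B, a targeting subunit of the phosphatase that reverses this step, fell in all 4, at -3.66 ± 0.61, -4.87 ± 0.55, -4.90 ± 0.65 and -2.93 ± 0.59, with the low-flow call lost without native replicate 1 or either low-flow library. With any 1 library left out, 2 to 7, 4 to 7, 1 to 7 and 1 to 4 genes of the list were lower. The gene called higher was RHOA, a small GTPase that restrains that phosphatase, at 0.94 ± 0.25 for stented high-flow and 0.92 ± 0.27 for high-flow arteries, also named after its values were seen. Neither RHOA call was kept without either native library.

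Of 20 tested dense body, intermediate filament and adhesion genes, 9, 8, 11 and 6 were called lower and none higher, with medians of -1.67, -1.44, -1.49 and -0.95. CSRP1, a LIM protein of the actin cytoskeleton, fell in all 4, at -4.14 ± 0.52, -3.28 ± 0.42, -3.40 ± 0.50 and -2.88 ± 0.49, the last of these lost without either low-flow library. DES, the muscle intermediate filament desmin, was at 2799 and 3248 CPM in native and 50.03 to 530 in cultured libraries. It passed the test in the first 3 groups, at -3.51 ± 1.00, -2.83 ± 0.84 and -3.35 ± 0.99, and had a low-flow value of -2.97 ± 0.98 (adjusted p = 0.0716). Each of the 3 DES calls was lost without either native library (adjusted p = 0.0952 to 0.151), and they were kept in 13, 14 and 14 of 21 alternatives. With any 1 library left out, 5 to 13, 3 to 12, 3 to 12 and 0 to 6 genes of the list were lower. Of 11 tested membrane and calcium handling genes, 2, 5, 2 and 1 were lower and none higher. These counts were 1 to 4, 1 to 7, 0 to 3 and 0 to 2 with any 1 library left out. SLC8A1, the sodium-calcium exchanger, was the 1 of them called lower in all 4. Its high-flow call was lost without native replicate 2 or either high-flow library, and its low-flow call without either native or either low-flow library.

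Of 18 tested genes around serum response factor and myocardin, 6, 7, 5 and 4 were called lower and none higher, with medians of -1.04, -0.56, -1.03 and -0.52. With any 1 library left out, 3 to 8, 5 to 9, 4 to 7 and 1 to 5 of them were lower. SRF, serum response factor itself, was at 166 and 174 CPM in native and 45.2 to 77.8 in cultured libraries, with no overlap. It fell in all 4 groups, at -1.74 ± 0.24, -1.33 ± 0.21, -1.53 ± 0.24 and -1.20 ± 0.24 (adjusted p = 0.0016, 0.0014, 0.0026 and 0.0098). The low-flow call of SRF was lost without either native or either low-flow library, and the other 3 were kept in all 21 alternatives. MYOCD, myocardin, was at 43.4 and 45.9 CPM in native and 7.94 to 34.2 in cultured libraries, also without overlap, and was called in none (-1.62 ± 0.69, -1.39 ± 0.61, -1.41 ± 0.69 and -0.63 ± 0.67, adjusted p = 0.146, 0.121, 0.196 and 0.584). KLF4, a factor known to repress contractile genes, fell in all 4, at -3.05 ± 0.36, -2.92 ± 0.31, -3.52 ± 0.37 and -2.89 ± 0.35, and these calls were kept in all 21 alternatives. GATA6 fell in all 4 and NOTCH3, a receptor of mural cells, in all but low-flow arteries (-0.93 ± 0.34, adjusted p = 0.0985). The low-flow call of GATA6 was lost without low-flow replicate 1, and the stented static call of NOTCH3 without native replicate 2 or stented static replicate 1.

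Of 17 tested genes known from synthetic smooth muscle, 3, 7, 7 and 6 were called higher, beside 5.54%, 10.4%, 5.94% and 5.03% of all tested genes. Called lower were 2, 3, 2 and 1 of the 17, beside 7.19%, 13.9%, 8.86% and 7.38% of all. COL1A1, COL1A2, COL3A1, COL8A1, TNC, THBS1 and PDGFRB were called in none of the 4 comparisons. The list's median log2 fold changes were -1.12, 0.63, 0.50 and 0.30. Without native replicate 1 the higher counts were 1, 4, 2 and 2, and without native replicate 2 they were 1, 5, 2 and 2. SPP1, osteopontin, rose in all 4 groups, by 3.12 ± 0.58, 4.53 ± 0.60, 4.35 ± 0.61 and 4.61 ± 0.62 (log2, SE), and LGALS3, galectin-3, by 4.54 ± 0.47, 4.37 ± 0.46, 3.63 ± 0.45 and 4.32 ± 0.47. Both are also known from macrophages. The stented static call of SPP1 was lost without either native library, and the LGALS3 calls were kept in all 21 alternatives. KRT8, a keratin, fell in all 4, and KRT18, its partner, in all but low-flow arteries. The KRT18 calls for stented static and for high-flow arteries were lost without either native library.

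**Figure D5:**
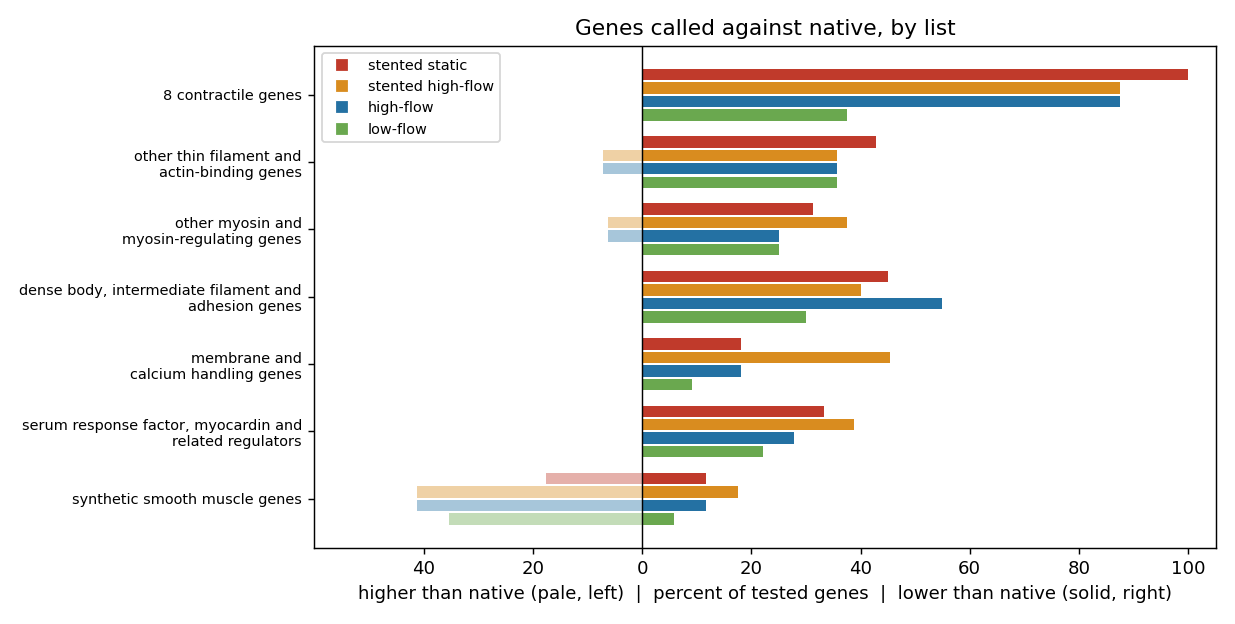
Percent of the tested genes of each list that were called lower (solid bars, right) or higher (pale bars, left) in each of the 4 comparisons with native arteries. The bars of the contractile genes stand for 8, 7, 7 and 3 of 8 called lower and none higher, and the synthetic list has bars on both sides.

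Markers of other cells in the wall were read in the same way, beside the shares of all genes called higher or lower given above. Macrophage markers (12 tested) were called higher for 4, 2, 2 and 3 genes and lower for 0, 1, 1 and 0, and without either native library 2, 1, 1 and 1 were higher. Their summed level was 308 and 327 CPM in native libraries, 1932 and 770 in stented static replicates 1 and 2, and 329 to 928 in the other cultured libraries. Adipocyte markers (8 tested) were called lower for 0, 6, 3 and 2 genes, and their sum was 2588 CPM in stented static replicate 1 and 273 in replicate 2, beside 3064 and 1965 in native and 49.3 to 293 in the other cultured libraries. Without native replicate 1, 0, 5, 1 and 0 adipocyte markers were lower, and without native replicate 2, 0, 6, 1 and 1. The library with the lowest contractile levels was thus also the cultured library highest in macrophage and adipocyte markers. It was likewise the cultured library highest in the endothelial (1247 CPM) and pericyte sums (2040 CPM) and lowest in the adventitial fibroblast sum (2214 CPM), lists given next. Endothelial markers (10 tested) were lower for 1, 7, 2 and 3 genes (summed 1023 to 1178 CPM native, 390 to 1247 cultured). Adventitial fibroblast markers (11 tested) were lower for 3, 6, 4 and 3 and higher for 1, 2, 1 and 1 (summed 4448 to 4708 CPM native, 2214 to 7719 cultured). Pericyte markers (8 tested, among them RGS5, which the myosin list also holds) were lower for 3, 5, 2 and 3 and higher for 2 in each comparison (summed 2787 to 3146 CPM native, 1359 to 2040 cultured). Without native replicate 2, the counts called lower were 0, 3, 0 and 0 endothelial, 2, 3, 2 and 2 adventitial and 2, 4, 2 and 1 pericyte markers. Without native replicate 1 they were 0, 5, 1 and 0, then 3, 4, 2 and 2, then 3, 3, 2 and 2, in the same order. The part of these cells in the levels of the contractile genes was not tested.

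The authors deposited a list of differential genes for each of the 4 comparisons with native arteries. These lists hold members 23 times (7, 5, 7 and 4 in the same order of groups). All 23 have the same sign as here, and the deposited fold changes differ from these by at most 0.0121 on the log2 scale. In the same order the deposited lists hold 553, 1117, 1129 and 928 entries, where 1955, 3737, 2272 and 1904 genes were called here. The names of the lists give an adjusted p of 0.05, the threshold also used here. The test behind it or further rules for listing may therefore differ. TNNC1, MYL9 and LMOD1 are listed in all 4 and SMTN in none, although SMTN was called in all 4 here. Of the 23 entries for members, 3 were not called here, and 5 calls made here are not listed. MYH11, MYL9 and LMOD1 each overlap a long noncoding RNA in the RefSeq annotation of Sscrofa11.1, and since the strand setting of the counting is not given, reads of the gene and of the overlapping RNA cannot be told apart.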

How the data were processed

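RNA was taken from flash-frozen arteries, per the labels' protocols. The values are raw read counts per gene as the authors deposited them, in 2 tables that were joined by gene identifier. Reads were processed with Trimmomatic and FastQC on Sscrofa11.1, and DESeq2 was used, per the submitters' processing notes, with the aligner, counter and annotation not given in the sources used here. Values in the authors' deposited lists of differential genes are log2 fold changes. The 11 libraries were fitted together by group in edgeR 4.0.16 (R 4.3.3): filterByExpr kept 15348 genes, all 8 members included, with TMM scaling, glmQLFit and glmQLFTest, and Benjamini-Hochberg adjustment over those genes. The fit was tested on simulated data of 15348 genes with known decreases against native, in 5 draws. Over these draws 312 decreases were 2-fold, 350 were 4-fold and 338 were 8-fold. Over the 4 comparisons the fit called 0% to 1.28% of 2-fold, 22.9% to 38.6% of 4-fold and 54.1% to 68.3% of 8-fold decreases. Far fewer genes changed there than were called in the data. The adjustment depends on that share, so these rates need not hold for the data. A difference that was not called is still no evidence of an unchanged level. The SE given with an edgeR fold change is its absolute value divided by the square root of the test's F statistic. Log2 CPM used a prior count of 2. DESeq2 1.42.0, other scalings, filters, sample sets and a threshold of 0.01 were alternatives. The 8 members are named throughout. Of each other list up to 4 called genes with the largest mean absolute fold change were eligible to be named, with SRF, MYOCD, TAGLN and heart markers, and the 10 genes most similar in pattern. Members and lists were chosen with earlier results of these data known. Gene positions are from RefSeq, Sscrofa11.1. No sequences were used.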

Additional observations from a re-analysis of the deposited data

Results flagged for a closer look

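ACTG2 fell by 6.30 (log2) against native arteries in stented static and by 2.09 in stented high-flow arteries, and the difference between these changes, 4.21, passed edgeR's quasi-likelihood test (adjusted p = 0.0280). It is singled out because it was the only call of a member over the 6 comparisons among cultured groups, so it was picked by its result. The 2 stented static libraries were at 5.41 and 47.3 CPM and the 3 stented high-flow libraries at 458, 351 and 652. The difference did not pass without native replicate 1 or stented static replicate 1 (adjusted p = 0.0502 and 0.0573). It did not pass either with only the 2 groups compared (4.19, adjusted p = 0.138), with the libraries of 1 count table (4.22, adjusted p = 0.0660), with both low libraries left out (3.38, adjusted p = 0.0547) or at a threshold of 0.01. With any 1 other library left out the adjusted p was 0.0017 to 0.0495.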

How the results depend on the processing

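Members called lower against native were 8, 7, 7 and 3 (stented static, stented high-flow, high-flow, low-flow). DESeq2 gave 8, 8, 8 and 6, as did no filter on low counts. Only the 2 groups compared gave 8 in each, libraries standing in 1 count table gave 8, 6, 8 and 7, and a threshold of 0.01 gave 4, 5, 4 and 0. RLE and upper-quartile scaling and a minimum of 10 counts changed none of these 4 counts. Leaving out 1 library gave 4 to 8, 5 to 8, 1 to 8 and 0 to 7. The lowest were without native replicate 2 in stented static and stented high-flow, without high-flow replicate 1 in high-flow, and without either native or low-flow library in low-flow arteries. Leaving out stented static replicate 1 with high-flow replicate 1, an alternative chosen after seeing the data, gave 8, 8, 7 and 8. Stented high-flow against stented static had 1 call, 2 with DESeq2 or no filter, and 0 with only the 2 groups, 1 count table, the 0.01 threshold or both low libraries left out, with 0 to 3 when 1 library was left out. Low-flow against stented static had 0, and 2 with DESeq2 or no filter. High-flow against stented static had 0, also with DESeq2. Both counts rose without stented static replicate 2, a fit that leaves 1 library in that group. Of the members' 80 fold changes, alternatives were run for 44, namely the 32 against native and the 12 of at least 2 (log2) among cultured groups. None of these 44 turned its direction: 793 results kept their side of the threshold, 67 lost it and 56 gained it. The smaller differences were read through the members' median, which turned from 0.71 to -0.77 in high-flow against stented static without high-flow replicate 2, and from 0.38 to -0.31 in stented high-flow against high-flow without high-flow replicate 1. Leaving out 1 library gave -7.83 to 0.50 for MYH6 and -11.13 to 0.37 for LMOD2 in stented static arteries (the highest without native replicate 1) and -0.0033 to 2.24 for MYL2 in high-flow arteries (the lowest without native replicate 2). The cause was not tested.

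The deviations of same-numbered libraries from their group means correlated at -0.329 to 0.183 (14 distinct values, 4 over 0.1, since in groups of 2 both numbers give the same value). The numbers were therefore not treated as pairs, though the labels do not say what they stand for. Native replicate 2 and stented high-flow replicate 1, whose names share the number 25, correlated at 0.0412, and no fit paired them. A replicate block gave 8, 6, 7 and 3 members lower against native and 0 for stented high-flow against stented static, where ACTG2 was at 4.17 (adjusted p = 0.0622).

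Depth does not limit the 8 genes, whose counts were 48 or more. Groups of 2 or 3 libraries do limit the precision.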
